A study of Mus musculus with 6 samples.

Results

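The genes described here are 10 imprinted genes tied to growth: H19, Igf2, Dlk1, Meg3, Mest, Peg3, Peg10, Plagl1, Grb10 and Ndn. They were chosen by name, partly on a measured value of these same arrays, the lower signal of Peg10 after deletion of Rb. The list is therefore described without a test of its own. Of the 10, 9 had at least 1 array probe that could be named, among 20832 named genes in all, and H19 is not analysed here because no probe was matched to it. The filter asked that a group's 3 arrays all be well above background, in either group, and 8 of them passed, among 13729 genes tested. Igf2 did not. The 9 genes had 19 probes, of which 16 passed.

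The cells were primary mouse prostate cells, all p53-/- and carrying 2 loxP-flanked copies of Rb. They grew in Prostacult medium without FBS but with bFGF and bEGF. An overnight infection with adenovirus carrying lacZ gave the 3 samples with Rb intact, and adenovirus carrying Cre recombinase, the enzyme that cuts out DNA between loxP sites, gave the 3 samples with Rb deleted. RNA was taken 48 hours after infection. Each virus went with 1 Rb status, so the effect of Cre itself cannot be told apart from that of Rb loss. Strain, age and the number of animals are not given in the sources used here, and the design text speaks of independent experiments, so p-values measure the spread between these samples only. Each sample had its own 1-colour array.

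At an imprinted gene, the copy from 1 parent is read and the other is mostly silent. Which copy is read depends on DNA methylation that was laid down in the germ line on 1 parental copy of a control region, not always the silent one. Igf2, Dlk1, Mest, Peg3, Peg10, Plagl1 and Ndn are read from the paternal copy, whereas H19, Meg3 and, in most tissues, Grb10 are read from the maternal copy. Many of these genes are active in the embryo, are turned down after birth, and act on growth, and Plagl1 encodes a zinc finger factor known to act on other genes of this group. The arrays do not tell the 2 parental copies apart.

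The start regions of 4 of these genes are shown because 3 of them, Meg3, Mest and Ndn, had groups that did not overlap on their brightest probe, and Plagl1 encodes the factor named above. Each sequence holds the 250 bases before an annotated transcript start in the RefSeq table for build GRCm38.p6, written 5′ to 3′ on the gene's own strand, which is the plus strand for all 4. They lie at chr12:109540746-109540995 for Meg3 (the first of its listed starts), chr6:30737800-30738049 for Mest (the second), chr10:13090582-13090831 for Plagl1 and chr7:62348027-62348276 for Ndn. Capitals mark TGCCGC on either strand, the core of the motif bound by Zfp57, a protein that keeps methylation at imprinted control regions, and the E2F motifs TTTCCCGC, TTTCGCGC, TTTGCCGC and TTTGGCGC on either strand. E2F factors are the transcription factors that the Rb protein holds in check.
Meg3: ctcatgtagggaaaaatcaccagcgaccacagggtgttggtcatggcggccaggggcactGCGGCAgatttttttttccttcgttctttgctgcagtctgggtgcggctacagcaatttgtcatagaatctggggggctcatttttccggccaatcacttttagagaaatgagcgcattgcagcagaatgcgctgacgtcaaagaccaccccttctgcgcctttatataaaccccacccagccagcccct
Mest: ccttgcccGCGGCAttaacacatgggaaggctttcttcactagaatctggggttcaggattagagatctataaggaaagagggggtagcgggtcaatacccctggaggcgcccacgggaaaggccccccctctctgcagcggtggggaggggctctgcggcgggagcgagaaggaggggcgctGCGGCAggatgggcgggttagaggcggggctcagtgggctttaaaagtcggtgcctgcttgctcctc
Plagl1: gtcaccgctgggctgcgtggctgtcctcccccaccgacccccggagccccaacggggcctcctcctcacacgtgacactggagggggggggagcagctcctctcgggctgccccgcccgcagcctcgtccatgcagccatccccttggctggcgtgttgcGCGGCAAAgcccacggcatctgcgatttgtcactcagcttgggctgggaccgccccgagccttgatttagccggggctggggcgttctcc
Ndn: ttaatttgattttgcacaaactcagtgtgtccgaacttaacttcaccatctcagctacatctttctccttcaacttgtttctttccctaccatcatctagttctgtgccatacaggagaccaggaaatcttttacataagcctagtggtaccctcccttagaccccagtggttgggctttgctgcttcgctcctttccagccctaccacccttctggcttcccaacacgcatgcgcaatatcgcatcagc

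In Meg3 the capitals mark 1 match to TGCCGC, and in Mest they mark 2. The capitals in Plagl1 mark a single place that matches both TGCCGC and TTTGCCGC, since the second contains the first. Ndn has no match, which says only that these letters are not in this window. The table held 15 promoters of 300 bases (250 before and 50 after the start) for 8 of the 10 genes, Igf2, Dlk1, Meg3, Mest, Peg3, Plagl1, Grb10 and Ndn. TGCCGC was in 6 of these 15, from 5 genes (Igf2, Meg3, Mest, Plagl1 and Grb10), against 11.6% of all 32851 promoters in the table. Mest contributed 2 promoters that overlap almost wholly. An E2F motif was in 1 of 15, that of Plagl1, against 2.26% of all. The members' promoters held between 1 and 45 CpG dinucleotides, the sites of DNA methylation, and the median of all promoters was 7, with quartiles of 3 and 20. TGCCGC and the E2F motifs each hold a CpG, and the shares over all promoters were not matched for CpG number. The part of CpG number in the motif shares was not tested. A match is a description of the letters and not of binding.

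Levels below are log2 intensities with the 75th percentile of the same array subtracted, so a value of 0 is at that percentile. Each difference is the Rb deleted mean minus the Rb intact mean, in log2 units, with the standard error (SE) of a limma fit. A level of one probe says nothing against that of another. The words rose and fell are kept for genes with an adjusted p under 0.05 in limma, with Benjamini-Hochberg adjustment over all tested genes. Rb1, the targeted gene, read -1.15, -1.13 and -1.16 on the Rb intact arrays and -3.12, -3.11 and -3.07 on the Rb deleted arrays. Its means were -1.14 ± 0.02 and -3.10 ± 0.03 (SD, n = 3), so 25.8% of the intact signal remained (limma adjusted p = 8.14e-05). Between 58.7% and 63.3% of spots were well above background, none was saturated, and arrays correlated with one another at 0.988 to 0.998 across probes. In all, 1327 genes rose and 1479 fell. The 3 arrays with Rb intact and the first with Rb deleted shared 1 slide, and the other 2 with Rb deleted shared another. Among the prostate epithelial markers, Krt5, Krt15, Cdh1, Pbsn and Tmprss2 did not pass the filter, whereas Krt18 and Trp63 did and all 12 mesenchymal markers did. Of the leukocyte markers, Itgam, Csf1r and Cd3e were above background on all 6 arrays and Ptprc on 0 of 6. As these are bulk cultures, fewer cells of a type and less RNA per cell cannot be told apart.

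**Figure D1:**
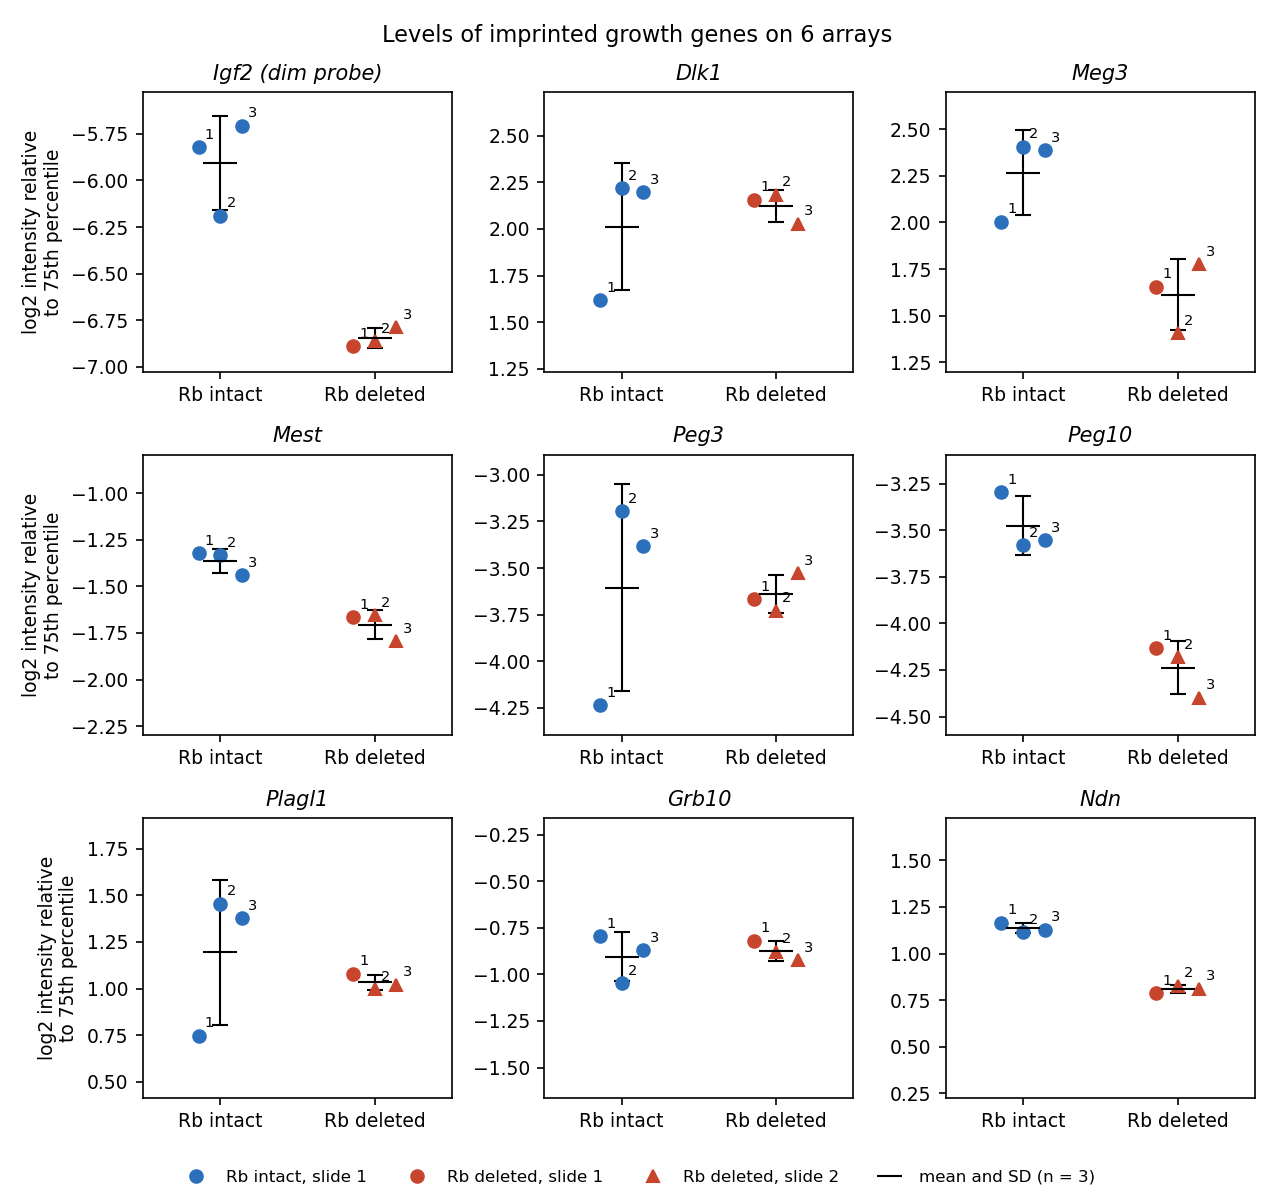
Log2 intensity minus the 75th percentile of its array (vertical axes, which differ between panels) for 1 probe of each gene, with 1 numbered point per array, triangles for the second slide, and lines for the mean and SD (n = 3). Peg10, Meg3, Mest, Ndn and the dim Igf2 probe had every Rb deleted array below every Rb intact array, and for Dlk1, Peg3, Plagl1 and Grb10 the groups overlapped.

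Peg10, Meg3, Mest and Ndn were lower with Rb deleted, with log2 differences of -0.33 to -0.76, while Dlk1, Peg3, Plagl1 and Grb10 had overlapping groups. Igf2 was near background throughout. The median difference of the 8 genes was -0.24, with a range of -0.76 to 0.11, and the median over all 13729 tested genes was 0.01. In the fit across all genes 4 of the 8 passed the threshold, all 4 lower, where 10.8% of all tested genes fell and 9.67% rose. Groups that did not overlap were found for 4 of the 8 and for 45.2% of all tested genes. Since the same contrast was used in choosing the list, nothing is read from these counts. With the slide as a block, 0 of the 8 passed, against 4.89% of all genes, and 4 of the 8 had an unadjusted limma p under 0.05, as did 2743 of the 13729 genes. Without the first Rb intact array, 6 of the 8 passed, with Peg3 and Plagl1 added, against 37.2% of all genes.

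Igf2 encodes the fetal insulin-like growth factor, the ligand of this group. Its 1 named probe read -5.82, -6.19 and -5.71 on the Rb intact arrays 1 to 3, and -6.89, -6.86 and -6.79 on the Rb deleted arrays. It was well above background on 2 of 3 arrays with Rb intact and on 0 of 3 with Rb deleted. Every Rb deleted value was below every Rb intact one. Because the dimmer group was not measured above background, its signal was replaced by a floor, which gave 1.29-fold lower with Rb deleted. Not every Rb intact array was above background either, so this fold is not a firm bound. This gene was not in the fit.

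Dlk1 encodes a membrane protein with EGF-like repeats that holds back differentiation of fat cell precursors, among others. Its brighter probe read 1.62, 2.22 and 2.20 with Rb intact and 2.16, 2.18 and 2.03 with Rb deleted. The means were 2.01 ± 0.34 and 2.12 ± 0.08 (SD, n = 3), a difference of 0.11 ± 0.17. The groups overlapped, and the lowest value was that of Rb intact array 1. Without that array the difference was -0.08. A second probe read -1.66, -1.55 and -1.66 against -1.57, -1.55 and -1.56, a difference of 0.07 ± 0.06, and on it array 1 did not stand apart.

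Meg3, a long noncoding RNA read from the other parental copy of the same imprinted cluster as Dlk1, was lower with Rb deleted on each of its 3 probes. The brightest read 2.00, 2.41 and 2.39 with Rb intact and 1.66, 1.41 and 1.78 with Rb deleted. The means were 2.27 ± 0.23 and 1.61 ± 0.19 (SD, n = 3), a difference of -0.65 ± 0.15 or 1.57-fold lower. No Rb deleted array reached the lowest Rb intact array. Its second probe read -0.01, -0.12 and -0.32 against -1.20, -0.94 and -0.65, a difference of -0.78 ± 0.15. The third read -4.83, -4.38 and -4.32 against -5.31, -5.74 and -5.25, a difference of -0.92 ± 0.19. Groups did not overlap on any of the 3 probes, and the differences ran from 1.57-fold to 1.89-fold. Dlk1 and Meg3, neighbours that are read from opposite parental copies, thus had differences of 0.11 and -0.65. The difference between these 2 was not tested.

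Mirg, a noncoding RNA gene of the same cluster as Meg3, fell by 0.48 ± 0.09 (limma adjusted p = 0.0172). It read 0.01, -0.29 and -0.23 with Rb intact and -0.69, -0.71 and -0.56 with Rb deleted. The groups did not overlap. Its call was lost without Rb deleted array 1 or 2.

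**Figure D2:**
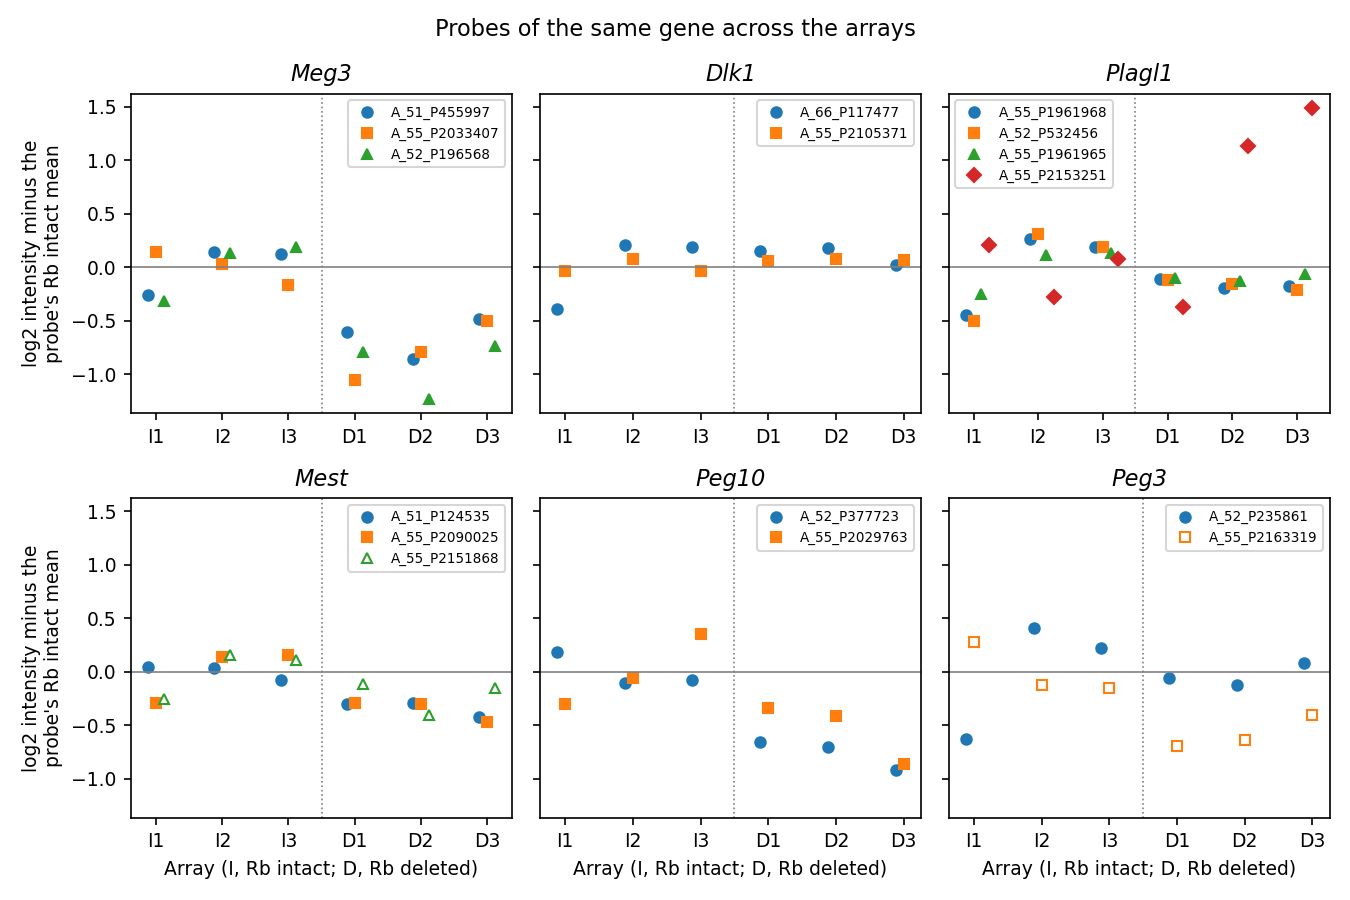
Log2 intensity of each probe minus that probe's Rb intact mean (vertical axis) on the Rb intact (I1 to I3) and Rb deleted (D1 to D3) arrays, with 1 symbol per probe and open symbols for probes that did not pass the filter. The Meg3 probes sit lower on all 3 Rb deleted arrays, and on I1 the brighter probe of Dlk1 and 3 of the 4 Plagl1 probes sit low.

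Mest encodes a protein of the alpha/beta hydrolase fold linked to growth of the embryo and of fat tissue. The brightest of its 3 probes, printed as 10 spots on each array, read -1.32, -1.33 and -1.44 with Rb intact and -1.67, -1.66 and -1.79 with Rb deleted. The means were -1.36 ± 0.06 and -1.70 ± 0.08 (SD, n = 3), a difference of -0.34 ± 0.07 or 1.27-fold lower. The groups did not overlap on this probe. They did on a second, which read -2.86, -2.43 and -2.41 against -2.86, -2.86 and -3.04 and differed by -0.36 ± 0.14. The remaining probe did not pass the filter, being well above background on 2 of 3 arrays in each group.

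Peg10 encodes a protein derived from a retrotransposon that the placenta requires, and its fall is what put it on the list. Its brighter probe read -3.29, -3.58 and -3.55 with Rb intact and -4.13, -4.18 and -4.40 with Rb deleted. The means were -3.48 ± 0.16 and -4.24 ± 0.14 (SD, n = 3), a difference of -0.76 ± 0.11 or 1.70-fold lower. A second probe read -4.26, -4.02 and -3.61 against -4.31, -4.38 and -4.83, a difference of -0.54 ± 0.21 or 1.45-fold lower. On both probes every Rb deleted array was below every Rb intact array, although on the second the gap between groups was small. Sgce, a paternally read gene whose start lies beside that of Peg10, differed by -0.08 ± 0.06 (limma adjusted p = 0.396) and its groups overlapped.

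Ndn encodes necdin, a growth-restraining protein of the MAGE family known mainly from neurons. It read 1.17, 1.12 and 1.13 with Rb intact and 0.79, 0.83 and 0.81 with Rb deleted, on its 1 probe. The means were 1.14 ± 0.03 and 0.81 ± 0.02 (SD, n = 3), a difference of -0.33 ± 0.05 or 1.25-fold lower. The arrays of each group lay close together, and the gap between groups was several times their spread. Other paternally read genes of its cluster did not have lower values: Mkrn3 differed by 0.53 ± 0.17 (limma adjusted p = 0.0734), Peg12 by 0.32 ± 0.11 (limma adjusted p = 0.0801), Magel2 by 0.14 ± 0.08 and Snrpn by 0.13 ± 0.14. None of these 4, which were named after their values were seen, passed the threshold.

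**Figure D3:**
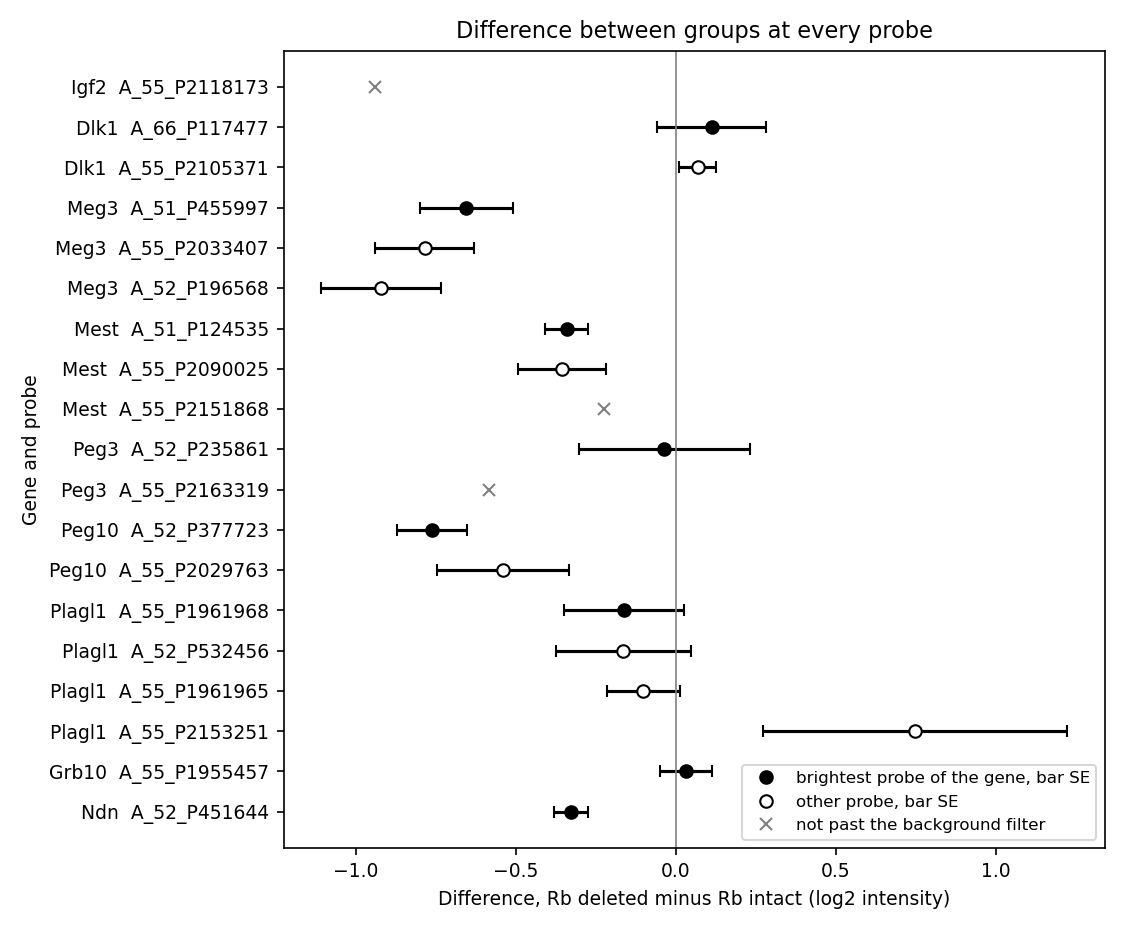
Difference between groups (Rb deleted minus Rb intact, log2) for each named probe of the members, with bars of 1 SE of the limma fit and crosses, without SE, for probes that did not pass the filter. The Meg3 and Peg10 probes lie below 0, and the probes of Plagl1 fall on both sides of it.

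Plagl1 encodes a zinc finger transcription factor that restrains the cell cycle. The brightest of its 4 probes read 0.75, 1.46 and 1.38 with Rb intact and 1.08, 1.00 and 1.02 with Rb deleted. The means were 1.19 ± 0.39 and 1.03 ± 0.04 (SD, n = 3), a difference of -0.16 ± 0.19. The groups overlapped because Rb intact array 1 lay below all Rb deleted arrays. Without that array the difference was -0.38, without Rb intact array 2 it was -0.03, and without Rb intact array 3 it was -0.07. A second probe read 0.51, 1.32 and 1.20 against 0.89, 0.85 and 0.80, and the third read -3.35, -2.98 and -2.97 against -3.21, -3.23 and -3.17, both with Rb intact array 1 lowest. Their differences were -0.16 ± 0.21 and -0.10 ± 0.11. The fourth read -4.74, -5.23 and -4.87 against -5.32, -3.82 and -3.46, a difference of 0.75 ± 0.47. That probe was higher by 1.68 on the 2 Rb deleted arrays of the second slide than on the Rb deleted array of the first, and the part of the slide in it was not tested. With the mean of the 4 probes in place of the brightest, the gene's difference was 0.08.

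Peg3 encodes a large zinc finger protein, itself imprinted, linked to maternal behaviour and fetal growth. Its brighter probe read -4.24, -3.20 and -3.38 with Rb intact and -3.67, -3.73 and -3.53 with Rb deleted. The means were -3.61 ± 0.55 and -3.64 ± 0.10 (SD, n = 3), a difference of -0.04 ± 0.27. The groups overlapped, with Rb intact array 1 below every other array. Without that array the difference was -0.35, and without Rb intact array 2 it was 0.17. A second probe, above background on 1 of 3 Rb intact arrays and on 0 of 3 Rb deleted arrays, read -5.53, -5.93 and -5.96 against -6.50, -6.45 and -6.22. Against a floor for the Rb deleted arrays it was 1.34-fold lower. Most of its Rb intact arrays were not above background either, so this fold is not a firm bound.

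Grb10 encodes an adaptor that binds the insulin and IGF1 receptors and damps their signal. Its 1 probe read -0.79, -1.05 and -0.87 with Rb intact and -0.82, -0.88 and -0.92 with Rb deleted. The difference was 0.03 ± 0.08, and the groups overlapped fully.

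On the first Rb intact array, Dlk1, Peg3 and Plagl1 differed from the mean of the other 2 Rb intact arrays by -0.59, -0.95 and -0.67 in log2 units, that is 1.51-fold, 1.93-fold and 1.59-fold lower. Meg3 differed by -0.39. A value below both other Rb intact arrays, and more than 0.5 below their mean, was found for 3 of the 8 genes. It was found for 5.58% of all tested genes, a comparison made after the values were seen. By any margin, 4 of the 8 genes were below both other Rb intact arrays, as were 43.3% of all tested genes. The remaining 4 were above both. Over all tested genes the median deviation of that array was 0.01. The mean level of the 3 tested leukocyte markers was also lowest there, at -0.38, against 0.20 and 0.38 on the other Rb intact arrays and -0.11 to 0.14 with Rb deleted. That came mostly from Itgam, which differed from the other 2 by -1.69, with Csf1r at -0.34 and Cd3e at 0.03. Their part in the result was not tested.

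Across 17 other ways of processing the data, the differences of Meg3 ranged from -0.79 to -0.55, of Mest from -0.38 to -0.30, of Peg10 from -0.81 to -0.61 and of Ndn from -0.35 to -0.30. Each of these 4 had the same sign in all 17. The sign of Dlk1, Plagl1 and Grb10 changed in 1 of 17, and that of Peg3 in 3 of 17. The 17 are not separate checks. Changing the filter, the variance trend or the replicate block left the difference of every tested member at its main value. The slide block and the first slide alone gave the same differences. With the slide as a block, which compares the groups within the first slide only, the differences were -0.61 for Meg3, -0.30 for Mest, -0.66 for Peg10 and -0.35 for Ndn.

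Cell type markers are set beside all tested genes, of which 9.67% rose and 10.8% fell. The tested smooth muscle markers, like Meg3, Mest, Peg10 and Ndn, were lower with Rb deleted. The mean level of the 4 tested of 6 ran from 2.62 to 2.74 with Rb intact and from 1.67 to 1.71 with Rb deleted, and all 4 fell, among them Tagln by 0.93 ± 0.06 and Acta2 by 1.35 ± 0.14 (limma adjusted p = 0.000425 and 0.00217). The basal epithelial markers, 4 tested of 7, ran from -0.62 to -0.57 and from -0.90 to -0.89, and 3 fell, including Itga6 by 0.58 ± 0.08. The 12 mesenchymal markers ran from 3.84 to 3.87 and from 3.76 to 3.79, with 1 that rose and 2 that fell. Of 4 tested endothelial markers, Vwf fell, by 0.97 ± 0.18, but it passed the filter only through the Rb intact group and was above background on 1 of 3 Rb deleted arrays. Pecam1, Cdh5 and Kdr, which were not called, differed by 0.29 ± 0.11, -0.13 ± 0.07 and -0.10 ± 0.12. No luminal or leukocyte marker passed in limma (1 luminal and 0 leukocyte markers had an unadjusted p under 0.05). Whether a change in the mix of cells had a part in the differences of the imprinted genes was not tested.

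Other genes of the imprinted clusters that hold the 10 members were measured as a list of 43, of which 29 were tested. Among them 2 rose and 6 fell, with a median difference of -0.04. Over all tested genes, 9.67% rose and 10.8% fell. Slc22a18, an organic cation transporter gene near Cdkn1c, fell by 1.56 ± 0.09 (limma adjusted p = 0.00028), from -3.25 ± 0.06 to -4.82 ± 0.14 (SD, n = 3). Ascl2, a transcription factor that the placenta requires, fell by 0.86 ± 0.06 (limma adjusted p = 0.000549). Cdkn1c, the cell cycle inhibitor p57 and read from the maternal copy, fell by 0.51 ± 0.07 (limma adjusted p = 0.00487), a fall that was already known when the list was made. All 3 lie in the cluster next to Igf2 and H19. Cobl, an actin nucleator encoded near Grb10, fell by 0.57 ± 0.10 (limma adjusted p = 0.0114), or by 0.32 with the normexp correction.

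The rises were smaller. Ins2, an insulin gene beside Igf2, rose by 0.25 ± 0.05 (limma adjusted p = 0.0192), and Asb4, which lies in the cluster of Peg10, rose by 0.28 ± 0.07 (limma adjusted p = 0.0386). Osbpl5, of the Cdkn1c cluster, fell by 0.24 ± 0.06 (limma adjusted p = 0.0369). Asb4 and Osbpl5 were named after their values were seen. The calls of Ins2, Asb4 and Osbpl5 were each lost without any 1 of 5 arrays, all but Rb intact array 1. Cd81, which encodes a tetraspanin, differed by -0.04 ± 0.21 and was also low on Rb intact array 1, which differed from the other 2 by -0.77.

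**Figure D4:**
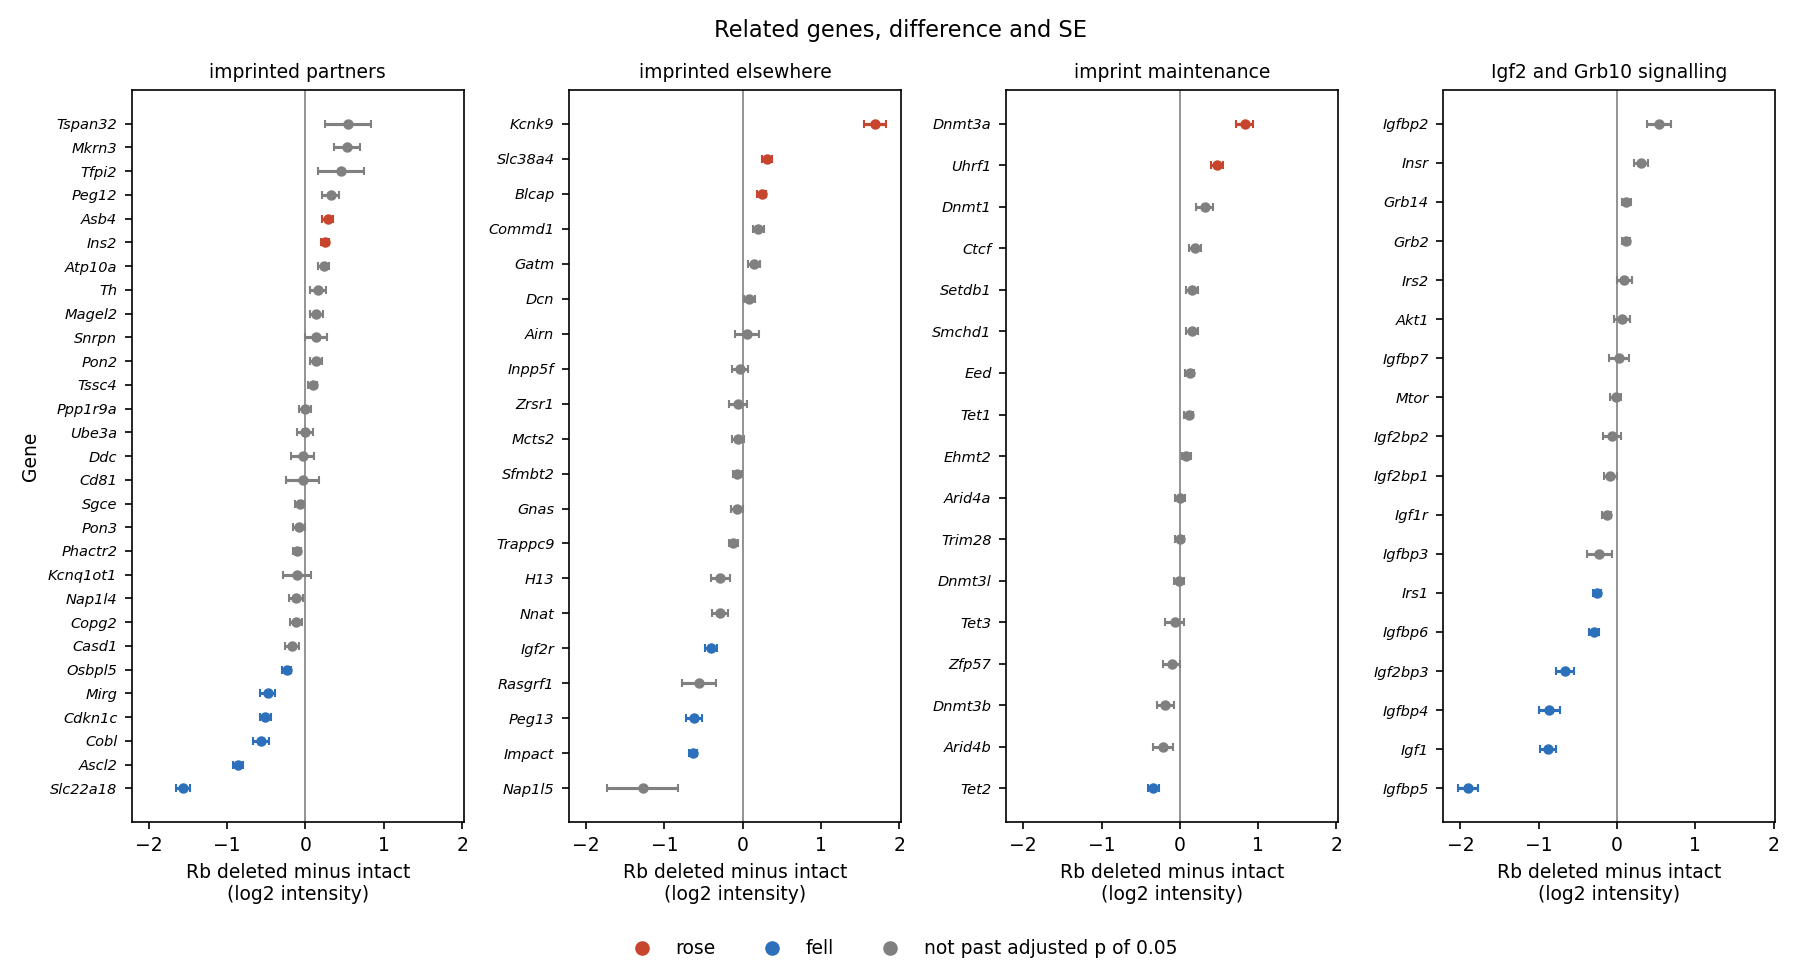
Difference between groups (Rb deleted minus Rb intact, log2) of the tested genes in the 4 related lists (all but 1, which is not shown), with bars of 1 SE and red or blue for genes that rose or fell at the adjusted p threshold. Slc22a18 and Igfbp5 lie lowest in their lists, Kcnk9 highest in its own.

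Among imprinted genes of other chromosomes or clusters, 20 of 24 were tested, 3 rose and 3 fell, with a median of -0.07. The shares of all tested genes that rose and fell were 9.67% and 10.8%. Kcnk9, a potassium channel gene, rose by 1.69 ± 0.14 (limma adjusted p = 0.000791). It passed the filter only through the Rb deleted group and was above background on 1 of 3 Rb intact arrays, so the size of its difference is uncertain. With the normexp background correction it was 0.80 (limma adjusted p = 0.000771), and with a filter on all 6 arrays it was not tested. Peg13, a noncoding RNA of the same imprinted cluster that is read from the paternal copy where Kcnk9 is read from the maternal one, fell by 0.62 ± 0.10 (limma adjusted p = 0.00886). Impact, a translation regulator, fell by 0.64 ± 0.05 (limma adjusted p = 0.000813), and Igf2r, the maternally read receptor that clears Igf2, fell by 0.40 ± 0.07 (limma adjusted p = 0.0139). Slc38a4, an amino acid transporter, rose by 0.31 ± 0.07 and Blcap rose by 0.24 ± 0.06 (limma adjusted p = 0.0217 and 0.0284). Dcn, which encodes decorin, differed by 0.08 ± 0.07.

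The imprint maintenance list held genes for proteins that set or keep imprints, and also Tet1, Tet2 and Tet3, whose products oxidise methylcytosine. Of its 18 genes, 17 were tested, 2 rose and 1 fell, with a median difference of 0.08. Of all tested genes, 9.67% rose and 10.8% fell. Dnmt3a, a de novo DNA methyltransferase, rose by 0.83 ± 0.11 (limma adjusted p = 0.00484), and Uhrf1, which brings the maintenance methyltransferase to newly copied DNA, rose by 0.48 ± 0.08 (limma adjusted p = 0.0101). Tet2, an enzyme that oxidises methylcytosine, fell by 0.34 ± 0.07 (limma adjusted p = 0.0232). Zfp57, whose motif is marked above, differed by -0.10 ± 0.11. Its partner Trim28 differed by -0.00 ± 0.06, and Ehmt2, a histone methyltransferase, by 0.08 ± 0.06. DNA methylation itself was not measured.

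The ligands, receptors, binding proteins and adaptors around Igf2 and Grb10 were tested for 19 of 20 genes. In limma 0 rose and 6 fell, with a median of -0.06 (2 were higher at an unadjusted p under 0.05). Among all tested genes, 9.67% rose and 10.8% fell. The growth factor Igf1 fell by 0.88 ± 0.10 (limma adjusted p = 0.00249). Of the proteins that bind and carry IGFs, Igfbp5 fell by 1.90 ± 0.13, from -0.25 ± 0.24 to -2.14 ± 0.11 (SD, n = 3, limma adjusted p = 0.000434). Igfbp4 fell by 0.87 ± 0.13 (limma adjusted p = 0.00723) and Igfbp6 by 0.30 ± 0.06 (limma adjusted p = 0.0208). Igf2bp3, which binds Igf2 mRNA, fell by 0.66 ± 0.12 (limma adjusted p = 0.0116), and the receptor substrate Irs1 by 0.26 ± 0.05 (limma adjusted p = 0.0224). The receptors Igf1r and Insr differed by -0.13 ± 0.06 and 0.30 ± 0.09 (limma adjusted p = 0.173 and 0.0623).

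Calls in the 4 lists depended on slide and on single arrays. With the slide as a block, Slc22a18, Ascl2, Cobl, Kcnk9, Impact, Igfbp5 and Igf1 kept theirs. Irs1 and Blcap lost theirs without any 1 of the 5 arrays other than Rb intact array 1. Igfbp6 and Tet2 lost theirs without Rb intact array 2 or 3 or Rb deleted array 2 or 3, Slc38a4 without Rb intact array 3 or Rb deleted array 2 or 3, Igf2r without Rb intact array 2 or Rb deleted array 2 or 3, and Igf2bp3 without Rb deleted array 2 or 3.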

How the data were processed

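Primary mouse prostate cells, 3 samples per group, were measured on 1-colour Agilent arrays. Per the file headers, the authors' intensity values come from Agilent Feature Extraction 11.0.1.1, as background-subtracted processed signals without scaling between arrays, although 10.7.3.1 is the version in the submitters' processing notes. The deposited files also carry other columns, flags of 0 or 1 for spots above background, saturated or outlying. The authors also deposited a log2 table of 22164 probes, each column equal to log2 processed intensity minus a constant (100% of values within 0.01) with column medians from -0.52 to -0.49, and it served as an alternative. Its centring is not given in the sources used here.

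Outlying spots were dropped, the 43020 non-control spots averaged to 39429 probes, and log2 processed intensity shifted by each array's 75th percentile. Probes had to be well above background on every array of either group (23047 kept). Probes were named by RefSeq accession through a GRCm38.p6 table (27427 named, 12002 not), and a gene was its brightest kept probe. A two-sided moderated test in limma (version 3.58.1, R 4.3.3), fitted without a block and with Benjamini-Hochberg adjustment over 13729 genes, called genes at an adjusted p under 0.05. SEs of members come from the same fit over all kept probes. Where a group was not above background on any array, the fold is an approximate bound. It sets the bright group's mean against a floored mean of the dim group. Each dim array gave its own signal or, if higher, that of the dimmest probe passing the background flag. The bound is not firm where the bright group was not above background on every array. The number of arrays limits precision.

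Members, lists and tests were chosen with earlier results of these data known. Named genes were all members, Rb1, Sgce, Igf1r, Igf2r and Insr, up to 6 called genes with the smallest p and the brightest gene of each of the 4 lists, and up to 3 called or brightest genes of each marker list. Brightest means the highest mean of the gene's probe over all arrays. Zfp57, Trim28 and other markers were named outside this rule, after their values were seen. Alternatives changed the scaling, filter, probe choice, background correction, variance trend, slide, replicate block and source table, and left out each array. Some genes and markers of the lists are counted but not reported by name here.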

Additional observations from a re-analysis of the deposited data

How the results depend on the processing

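Of 17 alternatives, the number of genes called (2806) stayed within 1.5 times in 7, of members (4) in 12, of cluster partners (8) in 8, of other imprinted genes (6) in 14, of imprint maintenance genes (3) in 14 and of signalling genes (6) in 13. Without a filter on dim probes 1491 genes and 4 partners were called. With the slide as a block the counts were 672 genes, 0 members, 3 partners, 3 other imprinted genes, 0 maintenance genes and 2 signalling genes; within the first slide, where 1 Rb deleted array is assumed to vary like the other group, they were 151, 0, 1, 0, 0 and 0. In limma at an unadjusted p under 0.05, the lists at 0 had 4 members and 3 maintenance genes with the block, and 4 members, 7 other imprinted, 2 maintenance and 4 signalling genes within the slide. Leaving out each array gave 1254 to 5113 genes, 2 to 6 members, 4 to 13 partners, 3 to 9 other imprinted, 2 to 5 maintenance and 3 to 9 signalling genes; the highest gene count, 5113, came without Rb intact array 1. The cause was not tested. Arrays with the same replicate number did not deviate together (correlations -0.03, -0.05 and 0.02), so no pairing was seen and none was used, although the labels leave it unstated; with the replicate block 1662 genes were called, and 4 members. The normexp background correction moved the difference of Ndn to -0.30, of Kcnk9 to 0.80, of Cobl to -0.32 and of Asb4 to 0.14, and Asb4, Ins2, Osbpl5 and Blcap were then not called. Signal over background limits Igf2, the second Peg3 probe and Kcnk9, and 3 arrays per group limit all values.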

Other observations

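Among imprinted genes outside the clusters of the 10 members, Nap1l5 was above background on all 3 arrays with Rb intact and on none with Rb deleted. Its approximate bound was 1.78-fold lower (limma adjusted p = 0.0968, not called). It was named after its values were seen.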
